A study of Mus musculus with 54 samples.

Results

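The AP-1 genes *Fos*, *Fosl2*, *Jun*, *Junb* and *Jund* were followed across all 54 libraries of a mouse kidney series that set tissue dissociation, storage and nuclei protocols side by side. The members were chosen by name, as 5 of the 33126 genes listed in at least 1 file, and every library lists all 5. The series holds 39 droplet (10x Genomics) libraries of cells or nuclei and 15 bulk RNA-seq libraries, in 18 groups of 3. No animal had received a treatment.

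The first experiment used kidneys of 19-week-old male mice, labelled C57BL/6J and called AFAPIL.1DEL C57BL/6J of 1 litter in the study's methods. They were dissociated warm, with the Multi Tissue Dissociation Kit 2, or cold, on ice with a protease from *Bacillus licheniformis*, so that the enzyme and the temperature cannot be told apart in any warm against cold comparison. Each suspension was profiled in bulk and, by 10x chemistry version 2, as fresh cells, after 6 weeks of cryopreservation and after 3 months in methanol. The later experiments used untreated Balb/c mice. By the study's account all experiments ran in 3 batches at different times, with the mice then at hand. From males of 18 weeks there were fresh cold-dissociated cells, nuclei of flash-frozen kidneys washed 3 times and spun at 500 g (3x500g) and bulk RNA of intact kidneys, with chemistry version 2. From females of 15 weeks, which had been breeders, there were fresh cold-dissociated cells, the same cells after 2 weeks of cryopreservation, nuclei made in 3 ways (3x500g, a single spin at 2000 g called 1x2000g, and a sucrose cushion), and bulk RNA of intact kidneys and of cold suspensions, with chemistry version 3. No label names the mouse behind a Balb/c library, and p-values measure the spread between the libraries of a group.

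AP-1 is a transcription factor made of paired Fos and Jun proteins joined through leucine zippers. *Fos*, *Jun* and *Junb* are immediate-early genes, which are switched on by growth factors, stress kinases and tissue injury without new protein synthesis, and whose messengers are short-lived. *Jund* is expressed in many resting cells, and *Fosl2* encodes Fra-2, a later and more stable Fos protein. In kidney work their messengers are widely read as a sign of how harshly a tissue was handled.

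In the GRCm38 annotation (GENCODE M21) *Fos* lies at chr12:85473890-85477273 on the plus strand, with 4 exons and 3 short introns of 1276 bases in all in its longest coding transcript. *Fosl2* lies at chr5:32135801-32157842 on the plus strand, with 4 exons and 15505 bases of intron. *Jun* (chr4:95049034-95052222, minus), *Junb* (chr8:84974484-84978718, minus) and *Jund* (chr8:70698949-70700616, plus) have a single exon in their longest coding transcript. The 250 bases before the RefSeq start (GRCm38.p6) of the 3 genes with the largest bulk differences are shown here 5′ to 3′ along each gene's strand, because these genes moved together in the warm-dissociated samples. Capitals mark a cAMP- or AP-1-type element that was found by its letters, TGACGTA in *Fos* and TGACATCA in *Jun*.
Fos: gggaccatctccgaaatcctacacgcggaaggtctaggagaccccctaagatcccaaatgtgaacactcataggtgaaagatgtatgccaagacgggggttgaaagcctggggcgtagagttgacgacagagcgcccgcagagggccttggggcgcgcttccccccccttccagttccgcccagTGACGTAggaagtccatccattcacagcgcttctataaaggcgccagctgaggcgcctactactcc
Jun: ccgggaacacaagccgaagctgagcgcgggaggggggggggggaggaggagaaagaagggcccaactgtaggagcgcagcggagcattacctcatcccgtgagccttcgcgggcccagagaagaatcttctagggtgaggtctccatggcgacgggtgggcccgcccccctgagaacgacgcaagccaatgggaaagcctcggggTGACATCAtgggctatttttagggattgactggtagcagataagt
Junb: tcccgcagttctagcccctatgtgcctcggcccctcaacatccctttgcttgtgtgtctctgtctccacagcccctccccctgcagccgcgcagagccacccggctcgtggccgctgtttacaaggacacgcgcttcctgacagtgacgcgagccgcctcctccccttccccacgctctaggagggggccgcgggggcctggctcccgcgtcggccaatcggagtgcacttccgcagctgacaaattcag
The *Fos* window is chr12:85473640-85473889 (plus) and holds TGACGTA at bases -66 to -60 before the start. The *Jun* window is chr4:95052223-95052472 (minus) and holds TGACATCA at bases -45 to -38. The *Junb* window is chr8:84978749-84978998 (minus), taken from a RefSeq start that lies 30 bases upstream of the GENCODE start, and none of the 5 motifs searched is among its letters. On both strands of the same window, 1.08% of 32851 RefSeq promoters held TGACGTA, 2.93% TGACATCA, 6.75% TGANTCA, 1.55% TGACGTCA and 1.47% a CArG box. These motifs do not overlap one another in the windows shown, and a match describes letters only.

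The bulk libraries held 2326998 to 31093949 reads and the 10x libraries 983522 to 35170947 UMIs over 782 to 9308 barcodes. Of 175959 barcodes, 102504 (58.3%, 35.3% to 89.0% by library) were gated to 1 of 13 cell classes by 142 marker genes, none of them a member. A marker held out of each gate was higher in its own class than elsewhere in the 12 classes of cells and the 9 of nuclei with at least 100 barcodes, by 2.98 to 582 times. Proximal tubule held 33.4% to 38.1% of barcodes in fresh C57BL/6J libraries, 0% to 0.504% after cryopreservation and 17.3% to 25.6% after methanol, and 4.80% to 6.61% in cryopreserved Balb/c libraries against 20.0% to 22.7% in fresh ones. Whole-library values therefore mix class make-up with levels within classes, and in bulk fewer cells of a type and less RNA per cell cannot be told apart. No 2 libraries shared more than 2.05% of the smaller one's barcodes. The study's methods kept genes detected in at least 10 cells. In the deposited matrices 0 to 6658 genes a library were at 0 throughout and 0 to 852 were held by 1 to 9 barcodes, so the rule is not exact for the barcodes deposited. A member listed at 0 in a whole library may have been removed by it, and 9 UMIs are used as an approximate ceiling.

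Bulk RNA-seq of the C57BL/6J suspensions asked what warm dissociation does to the whole suspension. All 5 members were higher in the warm-dissociated samples, against 5.42% of all genes tested that were called higher. *Fos* stood at 2.32, 3.35 and 3.97 counts-per-million units (CPM) in the 3 cold-dissociated samples and 606, 455 and 715 in the 3 warm-dissociated ones, a log2 fold change of 7.53 ± 0.21 (SE; edgeR quasi-likelihood test, Benjamini-Hochberg adjusted p = 8.17e-10). *Junb*, whose protein can pair with Fos and oppose Jun, rose from 7.45, 9.88 and 8.26 to 180, 142 and 188 CPM. *Jun* rose from 26.3, 35.0 and 30.2 to 550, 433 and 537 CPM. Both changes were near 4 on the log2 scale, at 4.30 ± 0.14 for *Junb* and 4.04 ± 0.12 for *Jun*. *Jund* (39.2 to 46.2 against 110 to 133 CPM, log2 fold change 1.46 ± 0.09) and *Fosl2* (35.2 to 39.1 against 70.0 to 83.2 CPM, 1.00 ± 0.09, adjusted p = 1.66e-05) moved least. *Fos*, *Jun*, *Junb* and *Jund* belong to the stress genes that the study picked on these same samples, so their direction is not independent evidence here. *Fosl2* is not among them.

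Per length of exon the order of the members turned over. In cold suspensions the level of *Jund* was 25.8 ± 2.11 RPKM (CPM divided by exon length in kilobases; mean ± SD, n = 3), that of *Jun* 9.56 ± 1.37, those of *Fosl2* and *Junb* 3.87 ± 0.210 and 3.71 ± 0.538, and that of *Fos* 1.37 ± 0.354. In warm suspensions *Fos* came first at 252 ± 55.5 RPKM, then *Jun* at 159 ± 20.1, *Junb* at 73.8 ± 10.7, *Jund* at 72.4 ± 6.84 and *Fosl2* at 7.91 ± 0.680. *Fosl2* and *Junb* in the cold, and *Junb* and *Jund* in the warm, lay within each other's spread. *Jund* was also first in intact Balb/c kidneys that had never been dissociated, at 124 ± 18.8 RPKM in females and 68.2 ± 21.6 in males, where *Fos* stood at 5.34 ± 5.58 and 0.641 ± 0.284. Strain and tissue input differ from those of the C57BL/6J suspensions. The female libraries were also poly(A)-selected, and those of the suspensions rRNA-depleted. Only the order of members within a group is read here, and levels were not compared between groups of different strains.

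The female Balb/c bulk libraries asked whether the cold protocol itself moves these genes. *Fos* was 0.868, 10.1 and 26.8 CPM in the 3 intact kidneys and 1.18, 8.44 and 24.3 CPM in the 3 cold suspensions. Each set held a low, a middle and a high library, and the groups overlapped fully. The log2 difference was -0.14 ± 0.95, with an approximate 95% interval of -2.01 to 1.73 that leaves a change of several fold in either direction undetectable with 3 samples a group. *Jun* (34.5 to 98.3 intact, 44.3 to 132 CPM in suspension), *Junb* (20.7 to 53.6 against 17.8 to 41.8) and *Jund* (180 to 241 against 182 to 238) also overlapped and were not called. *Fosl2* was lower in suspension, at 24.6, 25.9 and 24.6 CPM against 26.7, 29.7 and 32.0 (log2 fold change -0.25 ± 0.07, adjusted p = 0.0352), which made 1 of 5 members called against 20.0% of all genes called in either direction. That call was absent in 7 of 10 other settings, among them DESeq2.

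In the fresh 10x libraries of the same C57BL/6J suspensions, 4 of 5 members were higher in warm-dissociated whole libraries, against 7.86% of all genes called higher. *Fos* was listed at 0 in 1 cold library, where 9 UMIs would be 2.29 CPM, and stood at 5.76 and 4.34 CPM in the others. The 3 warm libraries held 735, 613 and 599 CPM. *Jun* went from 41.0, 54.5 and 45.4 to 970, 859 and 698 CPM, *Junb* from 39.2, 59.0 and 43.9 to 639, 443 and 480, and *Jund* from 203, 284 and 221 to 814, 631 and 624. *Fosl2* stood apart, at 8.66, 10.8 and 13.0 CPM cold and 8.59, 12.8 and 10.8 warm, a log2 difference of 0.16 ± 0.21 (approximate 95% interval -0.26 to 0.58, adjusted p = 0.665). The bulk log2 fold change of *Fosl2*, 1.00, lies outside that interval, and the assays were not tested against each other.

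**Figure D1:**
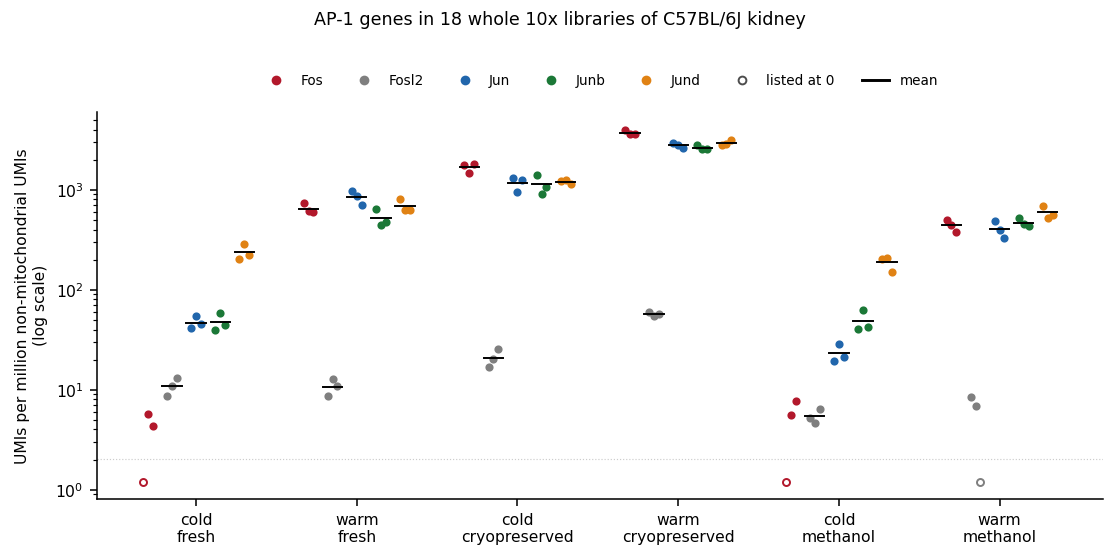
Levels of the 5 members (CPM of non-mitochondrial UMIs, log axis) in the 18 C57BL/6J 10x libraries, by dissociation and storage. Points are libraries, black bars are means where no library is at 0, and open points under the dotted line are libraries that list the gene at 0. *Fos* lies at or below 5.76 CPM in fresh cold-dissociated libraries and at 599 to 735 in fresh warm-dissociated ones, and all 5 members are highest in the cryopreserved warm-dissociated libraries.

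Within cell classes the same contrast was tested on summed UMIs of gated barcodes in each library. In 9 classes with enough barcodes, 33 of the 36 member tests that passed the low-count filter (of 45) were called higher in the warm-dissociated samples and none lower, against 2.45% of all gene tests called higher. The median log2 fold change of those 36 was 4.60, beside -0.01 over all genes. *Fos* held at most 14 UMIs a class in the cold-dissociated samples, and *Jun* 1 and 2 in T and B cells. Such tests passed the filter through the warm-dissociated samples and could hardly be called lower. *Fos*, *Jun*, *Junb* and *Jund* are also stress genes that the study picked on these samples. The count and the median are therefore no independent support for the direction. *Fos* rose in all 9 classes and *Jun* in all 9, *Junb* in all 8 tested and *Jund* in 7 of 9. The *Fos* call in intercalated cells was lost with DESeq2 (4.69 to 9.15 over all settings). The *Junb* call in the distal convoluted and connecting tubule was lost without the second cold-dissociated library. *Fosl2* was tested in proximal tubule only, where it was not called (2.04 to 7.52 CPM warm, 6.12 to 9.36 cold, adjusted p = 0.424).

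Collecting duct and tubule classes spanned the widest range of *Fos*. Principal cells, which reabsorb sodium and water in the collecting duct, held no *Fos* UMI in any cold-dissociated library and 4724, 3107 and 3979 CPM in the warm-dissociated ones, at least 117-fold higher against a floor of 12 UMIs over the group (3 UMIs, plus 9 for the library that lists *Fos* at 0). The warm values rest on 11 to 28 barcodes a library. In the thick ascending limb, which reclaims salt in the loop of Henle, *Fos* went from no UMI to 1452, 818 and 1207 CPM (at least 33.7-fold). Proximal tubule, the bulk reabsorbing segment, had the lowest warm level of the 9 classes, at 163, 180 and 81.9 CPM from 897 UMIs, against 2 UMIs in the cold-dissociated samples, a ratio of 430 with a 95% counting interval of 119 to 3553 for the UMIs as listed. With 9 UMIs added for the library that lists *Fos* at 0, 11 in all, the ratio is 78.1, outside that interval. Proximal tubule gave 12.2% of the gated *Fos* UMIs of the warm libraries from 61.9% of their gated barcodes, whereas mononuclear phagocytes gave 30.5% from 7.76% and principal cells 9.98% from 0.836%. Their shares of all gated RNA were 59.2%, 6.71% and 1.80%. Gated barcodes held 59.7% of the *Fos* UMIs of these libraries. The test of the difference between classes did not call *Fos* for any class against proximal tubule, where few or no UMIs on the cold side leave the fold itself loose.

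In warm-dissociated samples *Junb* had its highest means in T and B cells among the 9 classes. T cells carried *Junb* at 51.0, 272 and 163 CPM cold and 6918, 4893 and 5864 warm (log2 fold change 5.13 ± 0.39), and B cells at 204, 136 and 102 cold and 6784, 3456 and 5063 warm (5.06 ± 0.31). The warm values of both classes lay above every value of mononuclear phagocytes, endothelial cells and tubule classes other than principal cells. Proximal tubule *Junb* rose only from 16.1, 19.8 and 11.2 to 81.5, 76.2 and 55.4 CPM (2.27 ± 0.23). The rise of *Junb* was larger than in proximal tubule in 6 of 8 classes, by 4.02 ± 0.58 on the log2 scale in the thick ascending limb, 2.87 ± 0.42 in T cells, 2.77 ± 0.42 in B cells, 2.10 ± 0.34 in principal cells, 1.56 ± 0.30 in endothelial cells and 1.55 ± 0.31 in mononuclear phagocytes (edgeR interaction test, adjusted p from 2.36e-08 to 2.23e-04). The thick ascending limb value rests on 3 *Junb* UMIs in the cold-dissociated samples. Across members, 12 of 37 such differences from proximal tubule were called, all higher, against 0.492% of all gene tests, and the comparisons share the proximal tubule values. Without the second cold-dissociated library 7 were called.

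*Jund* was present in every class in the cold and moved unevenly. In cold-dissociated samples it was highest in podocytes, the filtration barrier cells, at 957, 938 and 753 CPM, overlapping B cells at 773, 977 and 544, and lowest in proximal tubule at 119, 168 and 133. Endothelial cells rose from 280, 284 and 234 to 3217, 2350 and 2553 CPM (3.37 ± 0.18) and B cells to 5705, 4149 and 5760 (2.70 ± 0.22). In the distal convoluted and connecting tubule (215, 196 and 184 against 291, 278 and 540 CPM, log2 fold change 0.78 ± 0.24, adjusted p = 0.335) and in intercalated cells (287 to 352 against 390 to 720, 0.77 ± 0.25, adjusted p = 0.296) it was not called, although the warm values lay above the cold ones. The rise of *Jund* exceeded that of proximal tubule in endothelial cells (by 2.07 ± 0.24), mononuclear phagocytes (1.46 ± 0.25), B cells (1.36 ± 0.33) and principal cells (0.84 ± 0.24, adjusted p = 0.0474). The B cell and principal cell calls were each lost in 5 of 9 other settings, 4 of them leaving out a library.

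*Jun* was called in all 9 classes. Endothelial cells had the highest mean in both protocols, at 280, 270 and 200 CPM cold and 5719, 3551 and 3589 warm (4.14 ± 0.23). In the cold they overlapped podocytes at 161 to 216 CPM, a class with too few barcodes in the warm-dissociated samples. Principal cells rose from 17.3, 12.7 and 9.90 to 1882, 1330 and 2284 CPM (6.97 ± 0.34), more than proximal tubule by 2.16 ± 0.57 (adjusted p = 0.0235), a call lost without the second or the third cold-dissociated library or the third warm-dissociated one. The cold values of principal cells rest on 5 *Jun* UMIs in all. T cells held 1 *Jun* UMI in the cold-dissociated samples and 205 in the warm-dissociated ones, a ratio of 253 with a counting interval of 44.8 to 10023. *Fosl2* was too low for the filter in most classes, with 1 UMI cold and 18 warm in T cells (ratio 22.2, counting interval 3.50 to 924) and 8.63, 38.2 and 29.7 CPM cold against 100, 54.5 and 73.7 warm in principal cells. B cells held none in either protocol. In the first warm-dissociated library intercalated cells had less *Fos* (104 CPM), *Jun* (130) and *Junb* (26.0) than in the others (547 to 1367, 821 to 995 and 429 to 547).

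**Figure D2:**
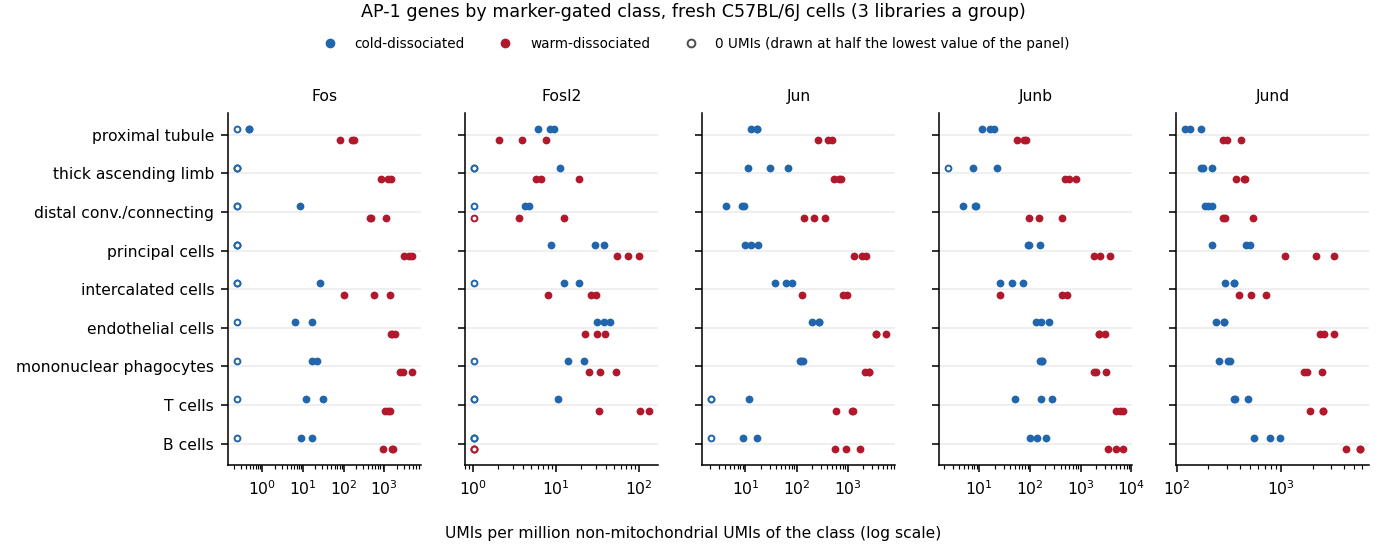
Levels of the 5 members (CPM, log axis) in 9 gated cell classes of fresh C57BL/6J cells, with cold- and warm-dissociated libraries as separate points. Open points hold 0 UMIs and are drawn below the lowest value of their panel. The 2 groups separate in every class for *Fos* and *Jun*, and *Junb* runs from 55.4 to 81.5 CPM in warm proximal tubule to 4893 to 6918 in warm T cells.

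Cryopreservation of the cold suspensions asked whether freezing and thawing moves genes that cold dissociation had left low. All 5 members were higher in cryopreserved whole libraries than in fresh ones, against 21.8% of all genes called higher, with class make-up shifted as given above. *Fos* reached 1773, 1467 and 1798 CPM (log2 fold change 8.67 ± 0.54), *Jun* 1313, 960 and 1253, *Junb* 1420, 912 and 1073 and *Jund* 1216, 1257 and 1145. *Fosl2* was 16.9, 20.1 and 25.8 CPM (0.76 ± 0.25, adjusted p = 0.0333), a call that was lost without the first or the second fresh library or without the second or the third cryopreserved one.

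Within classes 27 of 35 tests (of 50 in 10 classes) were called higher against 3.60% of all gene tests, with a median of 3.32, and none of the calls was for *Fosl2*. *Fosl2* could be tested in endothelial cells only, at 37.6 ± 6.80 CPM fresh and 33.9 ± 10.7 cryopreserved (mean ± SD, n = 3, log2 difference -0.07 ± 0.37). *Fos* was called in each of the 7 classes tested. Fresh cells held at most 14 *Fos* UMIs in any of these classes. The tests passed the filter through the cryopreserved libraries, so their shared direction is no independent support. Mononuclear phagocytes went from 0, 21.9 and 16.9 to 2811, 2614 and 3049 CPM (7.68 ± 0.32) and gave 60.0% of gated *Fos* UMIs from 28.4% of gated barcodes and 34.0% of gated RNA. Endothelial cells went from 0, 16.9 and 6.24 to 1169, 1485 and 1363 CPM (7.16 ± 0.33), and T cells from 0, 31.4 and 11.6 to 1372, 1603 and 1523. The thick ascending limb held 1626 and 91.0 CPM in the 2 libraries with enough barcodes, from 55 UMIs and 1 UMI, and intercalated cells 501, 974 and 45.5 (neither tested). *Fos* stood at 200, 145 and 185 CPM in the distal convoluted and connecting tubule, 698, 178 and 612 in principal cells (at least 11.6-fold over no UMI) and 209, 304 and 74.9 in podocytes, which had no *Fos* UMI when fresh (at least 10.7-fold, not tested).

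*Jun* was called in 9 of 9 classes, least in podocytes (216, 172 and 161 to 366, 475 and 384 CPM, 1.18 ± 0.22, lost without the second cryopreserved library), and *Junb* in 7 of 8, not in principal cells (94.9, 89.2 and 158 to 292, 151 and 280, 1.01 ± 0.37, adjusted p = 0.130). Fresh cells held 1 *Jun* UMI in T cells and 2 in B cells. Principal cells and the distal convoluted and connecting tubule held 5 each. Those *Jun* tests passed the filter through the cryopreserved libraries and could hardly be called lower. The count and the median of all members include them and are no independent support for the direction. The *Junb* call in mesangial, mural and fibroblast cells (3.33) was lost with DESeq2 and without the second cryopreserved library. The *Junb* call in the thick ascending limb rests on 2 cryopreserved libraries and was lost when libraries were paired by suspension. *Jund* was called in 4 of 10 classes, all of them immune or endothelial: mononuclear phagocytes 2.37 ± 0.20, endothelial cells 1.95 ± 0.16, B cells 1.83 ± 0.19 and T cells 1.80 ± 0.24. In classes not called, mean CPM went from 199 to 318 in the distal convoluted and connecting tubule and 330 to 576 in intercalated cells. It went from 467 to 972 in mesangial, mural and fibroblast cells and 393 to 473 in principal cells. In the thick ascending limb it went from 188 to 443 (0 and 887 in 2 libraries). The missing calls do not show that *Jund* stayed level there. Podocyte *Jund* stood at 1007, 1045 and 731 CPM after cryopreservation and 957, 938 and 753 before it, a log2 difference of 0.04 ± 0.18.

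Cryopreservation was compared in the same way in the warm suspensions. In whole libraries all 5 were called higher, against 25.8% of all genes. *Fos* went to 3976, 3580 and 3606 CPM (2.18 on the log2 scale) and *Fosl2* from 8.59 to 12.8 up to 54.4 to 59.4 CPM (2.02). Within classes *Fosl2* was tested in endothelial cells only, where it was not called (means of 30.8 and 58.0 CPM, n = 3, log2 difference 0.95 ± 0.35, edgeR adjusted p = 0.127). Within 8 classes 16 of 33 tests were called higher and 1 lower, against 8.06% of all gene tests called in either direction, with a median of 0.68. The called rises of *Fos* ran from 0.88 in T cells (lost without each of 4 libraries) to 2.15 in intercalated cells, and principal cells had no call for any member tested. *Fos* in intercalated cells went from 104, 1367 and 547 to 3775, 2825 and 3289 CPM (2.15 ± 0.44, lost with DESeq2), in the distal convoluted and connecting tubule from 432 to 1117 up to 1186 to 3211 (1.96 ± 0.41, lost without the second fresh or the third cryopreserved library), and in endothelial cells from 1770, 1455 and 1527 to 4463, 4563 and 3758 (1.58 ± 0.13). In mononuclear phagocytes, already at 2365 to 4766 CPM when fresh, *Fos* was 3995 to 4412 and not called (0.53 ± 0.20, adjusted p = 0.112). B cell *Junb* went from 6784, 3456 and 5063 to 2968, 2430 and 2379 CPM and fell by 1.00 ± 0.22 on the log2 scale (adjusted p = 0.0409), a call lost in 5 other settings.

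Warm and cold suspensions were then compared after cryopreservation. In whole cryopreserved libraries all 5 members were still higher in the warm-dissociated samples, against 4.00% of all genes called higher, by 1.16 for *Fos*, 1.27 for *Jun*, 1.24 for *Junb*, 1.30 for *Jund* and 1.45 for *Fosl2* on the log2 scale. Within 8 classes 26 of 34 tests were called higher against 4.82% of all gene tests, with a median of 1.54. Principal cells kept a large gap, with *Fos* at 698, 178 and 612 CPM cold and 5054, 5242 and 6770 warm (3.86 ± 0.36) and *Junb* at 292, 151 and 280 against 3263, 2598 and 3307 (3.99 ± 0.26). T cells did not for *Fos* (1372 to 1603 against 1915 to 2377, 0.51 ± 0.17, adjusted p = 0.0686). *Fosl2* was called in mononuclear phagocytes alone among the classes where it could be tested (15.3, 21.7 and 12.5 against 54.1, 33.5 and 39.5 CPM), and that call and *Junb* in B cells (adjusted p = 0.0488) were lost in 7 and 10 other settings.

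The change in the warm effect itself was tested as an interaction of dissociation and storage. The warm effect was smaller in cryopreserved than in fresh cells in 20 of 35 member tests and larger in none, against 0.405% of all gene tests called in either direction. Fresh cold libraries held at most 14 *Fos* UMIs in any class, and 1 and 2 *Jun* UMIs in T and B cells. Such tests passed the filter through the other groups. The study also picked *Fos*, *Jun*, *Junb* and *Jund* for their rise in fresh warm-dissociated samples. The count and its shared direction are therefore no independent support. In mononuclear phagocytes it was smaller by 7.10 ± 0.43 on the log2 scale for *Fos*, by 3.52 ± 0.25 for *Jun*, by 3.06 ± 0.27 for *Junb* and by 1.60 ± 0.28 for *Jund*. Endothelial, T and B cells also showed a call for each of these 4 genes, with the T cell call of *Jund* (-1.25 ± 0.28, adjusted p = 0.0368) lost in 11 other settings. In the thick ascending limb *Fos* and *Junb* were called, and without the second cold cryopreserved library neither was. In principal cells *Fos* and *Jun* were called and *Junb* (-0.59 ± 0.45) and *Jund* (0.46 ± 0.50) were not. The comparisons share the fresh and the cryopreserved libraries, so they are given side by side and not as repeats.

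**Figure D3:**
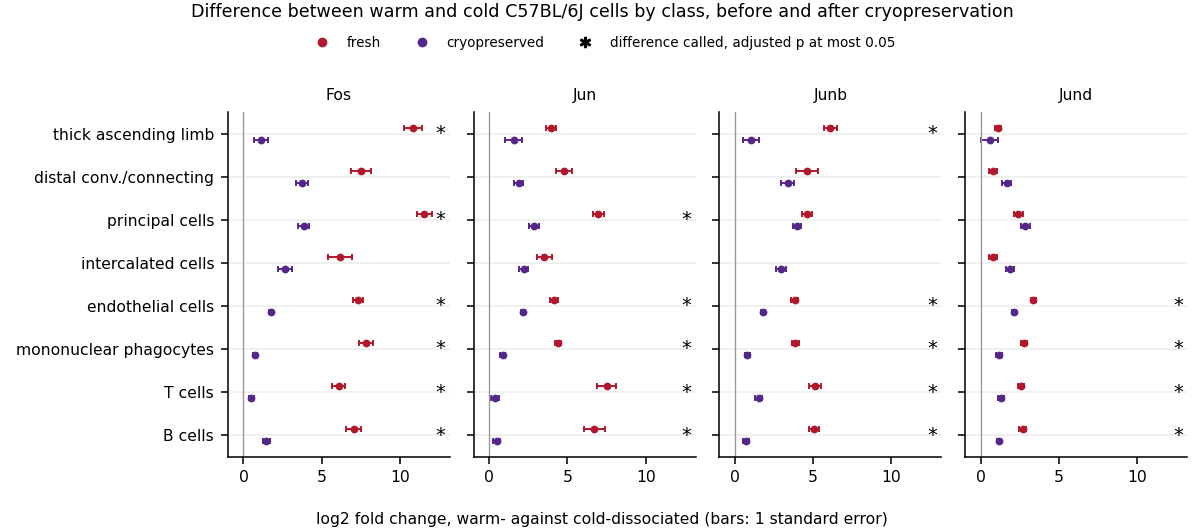
Log2 fold change of warm over cold dissociation (± 1 SE) of *Fos*, *Jun*, *Junb* and *Jund* in 8 gated classes, for fresh and for cryopreserved C57BL/6J cells. An asterisk marks a class where the test of the difference between the 2 was called. The fresh effect is the larger one in all 20 marked pairs, and values resting on libraries at 0 UMIs (*Fos* in the thick ascending limb and principal cells) are fitted values and no bounds.

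Methanol fixation asked whether fixed cells keep the profile of the fresh suspension. Of whole-library tests, 2 of 5 were lower in cold suspensions, against 13.6% of all genes called lower, and 2 of 5 in warm suspensions, against 9.77%. *Jun* fell in both, from 41.0, 54.5 and 45.4 to 19.2, 28.8 and 21.4 CPM cold (-0.83 ± 0.17, adjusted p = 0.00760) and from 970, 859 and 698 to 486, 399 and 329 warm (-0.98 ± 0.17, adjusted p = 0.00873). *Fosl2* was lower in the cold (5.24, 4.60 and 6.45 CPM, -0.82 ± 0.26, adjusted p = 0.0422) and *Fos* in the warm suspensions (495, 446 and 377 CPM, -0.49 ± 0.12, adjusted p = 0.0303). The *Fosl2* call was lost with DESeq2 and without each of 4 libraries, and the *Fos* call without any 1 of the 3 fresh libraries. *Junb* stood at 40.2, 62.4 and 42.7 CPM cold and 521, 455 and 434 warm, and *Jund* at 150 to 210 and 520 to 696, neither called. *Fos* in cold suspensions was listed at 0 in the first methanol library and stood at 5.60 and 7.78 CPM in the others (0.66 ± 1.01, approximate 95% interval -1.31 to 2.64, not called).

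Within classes 4 of 19 cold tests (of 55 in 11 classes) were called lower, against 10.8% of all gene tests, and 4 of 24 warm tests (of 30 in 6 classes), against 5.95%. In the cold these were *Jun* in podocytes (-1.52 ± 0.31), endothelial cells (-1.18 ± 0.22) and mononuclear phagocytes (-1.02 ± 0.29), and *Jund* in mononuclear phagocytes (-0.91 ± 0.23). Without the second methanol library 2 were called. In the warm they were *Jun* in proximal tubule (494, 417 and 265 to 132, 95.6 and 146 CPM, -1.69 ± 0.23), the thick ascending limb (-1.46 ± 0.32) and endothelial cells (-0.92 ± 0.21), and *Fos* in the distal convoluted and connecting tubule (-1.36 ± 0.45). That *Fos* call was lost in 4 of 13 other settings, DESeq2 among them (-1.77 to -0.45), and the groups overlapped (432 to 1117 CPM fresh, 133 to 532 in methanol). When libraries were paired by suspension 7 were called, and without the second warm methanol library 1.

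The warm effect was still there in fixed cells. In whole methanol libraries 4 of 5 members were higher in the warm-dissociated samples, against 1.15% of all genes called higher, by 6.41 for *Fos*, 4.16 for *Jun*, 3.32 for *Junb* and 1.73 for *Jund* on the log2 scale. *Fosl2* was 8.39 and 6.87 CPM in 2 warm libraries and listed at 0 in the third, beside 4.60 to 6.45 cold. Within 6 classes 21 of 24 tests were called higher against 1.72% of all gene tests, with a median of 3.84. *Fos* held at most 5 UMIs a class in the cold methanol libraries, and *Jun* 1 in B cells and 6 in the thick ascending limb. Such tests passed the filter through the warm libraries and could hardly be called lower. The count and the median are therefore no independent support for the direction. Mononuclear phagocytes held *Fos* at 0, 21.3 and 5.55 CPM cold and 2846, 2461 and 3304 warm (8.02 ± 0.35). Endothelial cells held *Junb* at 185, 308 and 191 CPM cold and 2802, 2544 and 2587 warm (3.46 ± 0.22). The difference between the warm effect in methanol and in fresh cells was called in 0 of 24 member tests (edgeR, 3 at an unadjusted p under 0.05, and 1 called when libraries were paired by suspension), against 0.00471% of all gene tests. Those 24 tests do not show that the effects are equal, since for *Fos* in mononuclear phagocytes the difference was 0.12 with an SE of 0.82.

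Cold-dissociated cells of female Balb/c mice repeated the freezing comparison in another strain, sex and chemistry, with 2 weeks of storage. All 5 members were higher in whole cryopreserved libraries, against 28.9% of all genes called higher. *Fos* went from 1.09, 11.5 and 24.5 to 68.4, 115 and 59.9 CPM (2.34 ± 0.66, adjusted p = 0.0147), with no overlap. *Jun* went from 49.5, 69.2 and 114 to 454, 426 and 375, *Junb* from 30.8, 32.2 and 69.6 to 137, 236 and 178 and *Jund* from 320, 297 and 391 to 668, 698 and 697. *Fosl2* went from 4.94 to 8.18 up to 11.1 to 18.1 CPM. Without the second cryopreserved library *Fos* and *Fosl2* were no longer called (adjusted p = 0.0526 and 0.0509), and *Fos* was not called with DESeq2 (1.78 to 3.13 over all settings).

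Within classes 12 of 35 tests (of 50 in 10 classes) were called higher and none lower, against 2.18% of all gene tests, with a median of 0.59. Mononuclear phagocytes carried a call for 4 members: *Fos* went from 8.20, 8.24 and 49.6 to 271, 298 and 118 CPM (3.21 ± 0.43), *Jun* from 164, 165 and 147 to 1506, 1143 and 723 (2.83 ± 0.23), *Junb* from 107 to 191 up to 332 to 485 (1.40 ± 0.20) and *Jund* from 321 to 381 up to 653 to 927 (1.20 ± 0.16). Endothelial cells carried a call for *Fos*, *Jun* and *Jund*. *Jun* also rose in mesangial, mural and fibroblast cells, the contractile and matrix cells of the kidney (78.1, 109 and 114 to 633, 402 and 509 CPM, 2.37 ± 0.22), and in the thick ascending limb (1.71 ± 0.24), where *Junb* was called too (1.41, lost in 5 of 12 other settings), and proximal tubule carried calls for *Junb* and *Jund*. The endothelial calls of *Fos* and *Jund* were lost without each of 3 and each of 2 libraries, the first fresh and the second cryopreserved one in both. Podocytes (*Jund* 1114, 1322 and 1262 against 1100, 1269 and 1380 CPM, *Jun* 0.17 ± 0.18) and intercalated cells had no call. Intercalated cells, which secrete acid or base in the collecting duct, already held *Fos* at 8.32, 194 and 312 CPM when fresh. They gave 44.0% of gated *Fos* UMIs from 3.49% of gated barcodes and 4.25% of gated RNA. The strains were not tested against each other, because chemistry, sex, age, storage time and the centrifugation speed at freezing and thawing differ with them.

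**Figure D4:**
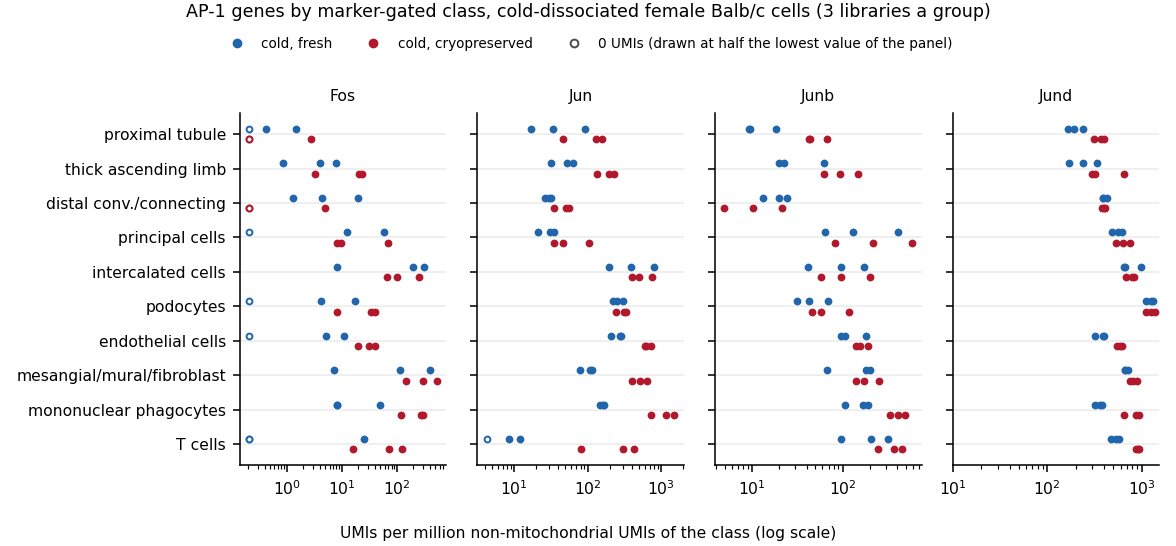
Levels of *Fos*, *Jun*, *Junb* and *Jund* (CPM, log axis) in 10 gated classes of cold-dissociated female Balb/c cells, fresh and cryopreserved, with 1 point a library and open points at 0 UMIs. Mononuclear phagocytes separate for all 4 genes, and podocyte *Jund* overlaps at 1100 to 1380 CPM after and 1114 to 1322 before cryopreservation.

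Nuclei of flash-frozen Balb/c kidneys were set against cold-dissociated cells. Nucleus against cell and freezing against dissociation differ together here, so they cannot be told apart in any of these comparisons. *Jund* was the member that differed most among those tested in whole libraries. In males it stood at 781, 698 and 721 CPM in cells and 120, 75.5 and 103 in nuclei (-3.05 ± 0.19), and in females at 320, 297 and 391 and at 47.6, 60.2 and 49.6 (-3.12 ± 0.11). It was lower in each of the 7 classes tested in males, by 1.39 to 3.28 on the log2 scale, and in each of the 8 in females, by 2.34 to 4.36. The smallest male value, in endothelial cells, was not called with DESeq2 or with its size factors (-2.05 to -0.82 over all settings). Podocytes, the class with the highest mean *Jund* in cells (overlapping NK cells in males), fell from 2618, 2010 and 2029 CPM to 207, 151 and 0 in males and from 1114, 1322 and 1262 to 91.9, 101 and 99.6 in females. The male podocyte nuclei held 8 *Jund* UMIs in all. Cells were counted on exons and nuclei on exons and introns, and the median of all genes was higher in nuclei by 0.84 in males and 0.10 in females on the log2 scale. Podocytes were the exception among classes, with the median gene at -1.29 in males, where *Jund* differed by -3.28, and -0.30 in females. *Jund*, *Jun* and *Junb* have a single exon in their longest coding transcript. The part of intron counting in these differences was not tested.

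In males all 4 members that could be tested in whole libraries were lower in nuclei, against 27.6% of all genes called lower: besides *Jund*, *Jun* (51.1, 41.6 and 31.6 to 19.2, 10.3 and 17.4 CPM, -1.58), *Fosl2* (10.3, 13.6 and 22.7 to 5.11, 7.03 and 6.55, -1.46) and *Junb* (79.7, 59.8 and 49.2 to 55.5, 27.6 and 31.9, -0.88, adjusted p = 0.0249). The *Junb* call was lost without the first or second library of cells, or without the second or the third of nuclei. *Fos* was listed at 0 in all 3 libraries of male cells, where 9 UMIs would be 3.50 to 6.60 CPM, and stood at 1.17 to 2.47 CPM in nuclei. Within 7 classes 10 of 15 tests (of 35) were called lower, against 30.3% of all gene tests, with a median of -1.45.

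In females 2 of 5 members were lower in nuclei in whole libraries, against 41.0% of all genes called lower, so that the count of members is at the background. *Jun* was 49.5, 69.2 and 114 CPM in cells and 54.7, 69.6 and 59.5 in nuclei (-0.77 ± 0.25, adjusted p = 0.0175) on trimmed-mean scaling, a call that was lost without the first or the third library of nuclei. *Fos* (-0.44), *Junb* (-0.50) and *Fosl2* (0.07) were not called. Within 8 classes 17 of 32 tests (of 40) were called lower and 1 higher, against 38.9% of all gene tests called lower and 41.9% higher. The exception was *Junb* in mesangial, mural and fibroblast cells, at 67.5, 200 and 181 CPM in cells and 371, 314 and 232 in nuclei (0.70 ± 0.27, adjusted p = 0.0225). That call was lost under DESeq2, without the first library of cells and with no limit on proximal tubule markers in the gate (0.25 to 0.99 over all settings). In the same class *Jun* fell from 78.1, 109 and 114 CPM to 0, 4.65 and 10.7 (-4.41 ± 0.48) and *Jund* from 664, 670 and 710 to 61.9, 44.2 and 28.5. *Junb* in endothelial cells was lower in nuclei (95.6, 107 and 183 to 26.3, 26.0 and 32.0, -2.41 ± 0.23).

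Female intercalated cells held the highest *Fos* of the gated classes in 3x500g nuclei and, overlapping mesangial, mural and fibroblast cells, in cells. They stood at 158, 214 and 274 CPM in those nuclei beside 8.32, 194 and 312 in cells (0.28 ± 0.40, adjusted p = 0.536), and gave 64.4% of the gated *Fos* UMIs of those nuclei from 5.98% of gated barcodes and 6.50% of gated RNA. Mesangial, mural and fibroblast cells came next, with 119, 119 and 74.9 CPM in nuclei and 7.10, 115 and 391 in cells. Both classes in cells held a low, a middle and a high library, in the same order as the whole libraries at 1.09, 11.5 and 24.5 CPM.

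The nuclei protocols differed among themselves. With a single spin at 2000 g 2 of 5 members were higher than with 3x500g in whole libraries, against 19.5% of all genes called higher, namely *Jund* (47.6, 60.2 and 49.6 to 74.6, 82.9 and 81.9 CPM, 0.59) and *Jun* (54.7, 69.6 and 59.5 to 75.6, 89.3 and 84.0, 0.43). Within 8 classes 6 of 31 tests were called higher against 9.55% of all gene tests, 5 of them *Jund*. Without the third 3x500g library, or the first or the third 1x2000g one, 3 were called. With the sucrose cushion 4 of 5 members were higher, against 23.9%: *Fos* (13.3, 11.4 and 11.7 to 35.0, 35.2 and 21.1 CPM, 1.32), *Junb* (0.99), *Jun* (0.90) and *Jund* (0.70), with *Fosl2* at -0.27 ± 0.15. Within classes 17 of 33 tests were called higher against 11.6% of all gene tests. Intercalated nuclei carried 4 of those calls, with *Jun* going from 257, 345 and 460 to 1122, 995 and 821 CPM (1.59 ± 0.16) and *Fos* from 158, 214 and 274 to 674, 525 and 294 (1.33 ± 0.23). Without the second sucrose library 9 were called. The sucrose and 1x2000g comparisons share the 3x500g libraries, and sucrose nuclei were not sorted whereas the others were.

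**Figure D5:**
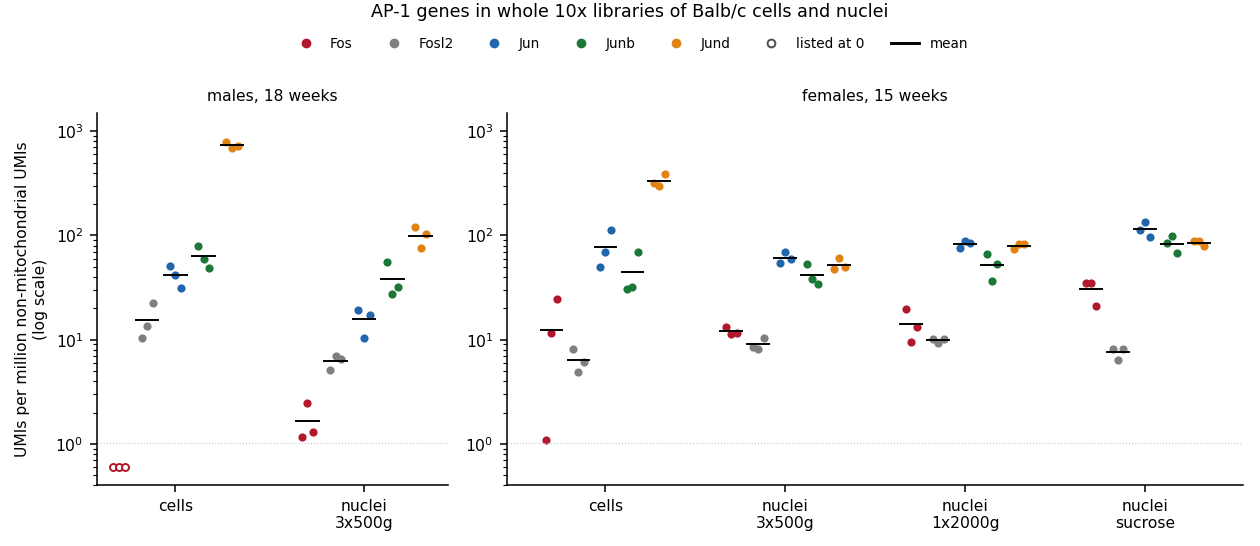
Levels of the 5 members (CPM, log axis) in Balb/c 10x libraries of males (cells, 3x500g nuclei) and females (cells and 3 nuclei preparations), with 1 point a library and open points listed at 0. *Jund* lies at 297 to 391 CPM in female cells and at 47.6 to 89.4 in all 9 female libraries of nuclei.

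Other genes of the pathway were read from 3 lists: 13 AP-1 partners (further Fos, Jun, Maf and ATF proteins that pair with the members), 22 upstream genes (kinases and factors that switch them on) and 12 target genes. In bulk warm suspensions, where 5.42% of all genes were higher and 3.26% lower, 5 of 10 partners tested were higher and none lower, with *Fosb* at 9.04 ± 0.14 on the log2 scale, *Atf3*, a stress-induced repressor, at 6.25 and *Maff* at 2.62. *Fosb* and *Atf3* are, like the members other than *Fosl2*, among the stress genes the study chose on these samples. Of 22 upstream genes 1 was higher (*Srf*, the factor that binds CArG boxes, 0.58) and none lower, with a median of -0.02. Of 8 targets 2 were higher (*Hbegf* 1.39, *Plaur* 1.28) and 1 lower (*Mmp9* -1.44). In fresh 10x libraries, where 7.86% of all genes were higher and 7.07% lower, 2 of 10 partners were higher, *Fosb* at 0 in the 3 cold libraries and 152, 168 and 136 CPM in the warm ones, and *Atf3* by 5.16. Upstream genes there counted 1 higher and 4 lower of 22, with *Creb1* at -0.67. *Hbegf*, a growth factor ligand, was the single target called of 8 (1.88).

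After cryopreservation of cold C57BL/6J cells, where 21.8% of all genes were higher and 28.9% lower, 7 of 10 partners were higher and 1 lower (*Atf3* 6.87, *Maff* 4.36), 5 of 9 targets higher and 1 lower (*Ccl2*, a monocyte attractant, 6.18, and *Cd44* 2.79), and upstream genes were split 5 to 4 of 21. In warm cells, where 25.8% were higher and 33.9% lower, 6 of 10 partners and 5 of 8 targets were higher and 1 target lower (*Maff* 3.43, *Ccl2* 3.10), with 10 upstream genes of 21 higher and 2 lower. In Balb/c cells, with 28.9% of all genes higher and 29.1% lower, the counts were 7 higher and 2 lower of 10 partners, 9 and 6 of 22 upstream genes and 4 and 1 of 7 targets. After methanol, where 13.6% of all genes were lower and 14.3% higher in cold suspensions and 9.77% lower in warm ones, 1 of 8 partners, 6 of 22 upstream genes and 1 of 7 targets were lower in cold suspensions and 1 target higher, and 2 of 9, 1 of 20 and 1 of 8 were lower in warm suspensions and none higher. In fixed cells, with 1.15% of all genes higher, 2 of 7 partners were higher in the warm-dissociated samples (*Fosb* from 0 to 55.4 to 73.7 CPM, *Atf3* 4.62), no upstream gene of 21 and 1 target of 6. In cryopreserved cells, with 4.00% of all genes higher and 2.68% lower, 4 of 11 partners were higher there and 1 lower, 1 of 20 upstream genes and 2 of 8 targets. In nuclei of females, where 43.8% of all genes were higher and 41.0% lower, the scaled levels were lower for targets, 6 of 8 lower and none higher (*Spp1*, osteopontin, -4.76), upstream genes counted 16 of 21 higher and 4 lower, and partners split 3 to 5 of 11. Nuclei of males, where 53.6% of all genes were higher and 27.6% lower, held 2 of 6 targets lower, 13 of 21 upstream genes higher and 3 lower, and 4 of 8 partners higher and 2 lower. Bulk suspensions against intact kidneys, with 20.0% of all genes called, moved 1 partner of 12 (*Jdp2*, lower), 3 of 22 upstream genes and 4 of 9 targets. Against 3x500g nuclei, with 19.5% of all genes higher and 15.4% lower in 1x2000g nuclei and 23.9% and 21.4% in sucrose nuclei, 1x2000g moved 1 partner of 13 up and 1 down, 1 and 8 of 21 upstream genes and 3 and 0 of 9 targets, and sucrose 2 and 3, 2 and 13, and 3 and 0.

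Across the 18 C57BL/6J 10x libraries the genes whose log2 level followed a member most closely were named among 7451 genes, as a description of libraries that share dissociation and storage groups. The nearest to *Fos* were *Egr1* (r = 0.989), *Atf3* (0.984) and *Fosb* (0.974), and the nearest to *Jun* were *Fosb* (0.991), *Junb* (0.983) and *Hspa1a* (0.979). *Junb* lay nearest to *Ier2*, *Hspa1a* and *Dusp1* (0.990), and *Jund* to *Klf6* and *Ppp1r15a* (0.987) and *Rhob* (0.984). *Fosl2* lay nearest to *Rnd3* (0.976), *Klf10* (0.974) and *Zbtb11* (0.973), and its r with *Fos* was 0.458 and with *Jund* 0.643, whereas *Fos* and *Jun* stood at 0.967. By Spearman's rank correlation the gap was narrower, with *Fosl2* at 0.792 to *Fos* and 0.783 to *Jund* and *Fos* at 0.957 to *Jun*.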

How the data were processed

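The authors deposited counts: whole UMI counts per gene and barcode for each 10x library (Cell Ranger 2.1.1 is named in the submitters' processing notes) and whole read counts per gene for each bulk library (STAR 2.6.1a and featureCounts are named there), on GRCm38. Cells were counted on exons and nuclei on exons and introns. Whether bulk counting used strand is not given in the sources used here. Bulk C57BL/6J libraries were rRNA-depleted and female Balb/c ones poly(A)-selected, so they were not compared with each other.

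The 5 members, the 3 gene lists and the gate markers were chosen with earlier results of these data known. A barcode was gated to a class with at least 3 of its markers, at least 2 more than the next class and no fewer than of proximal tubule, and to proximal tubule with at least 3 of its markers and at most 1 of any other class. No doublet caller was run and free RNA was not removed. UMIs were summed per library and class, leaving out mitochondrial genes, and classes with at least 10 gated barcodes in at least 2 libraries of each group were fitted. Tests were edgeR 4.0.16 quasi-likelihood fits (R 4.3.3) with trimmed-mean (TMM) scaling, filterByExpr and Benjamini-Hochberg adjustment over all genes, called at an adjusted p of 0.05. The script was tested on simulated data. Counting intervals and floors (95%, 3 UMIs) cover counting error only. On TMM scaling the median gene moved by -0.13 in cold and -0.15 in warm cryopreservation, -0.20 in warm methanol, -0.12 between warm and cold in methanol, 0.84 in 18-week and 0.10 in 15-week nuclei. Named genes of the lists are up to 3 a comparison, those with the largest called change, and likeness is Pearson's r of log2 CPM over genes with a mean of at least 10 CPM.

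Column headers name the suspension behind each C57BL/6J 10x library, which pairs fresh with stored libraries. Correlations of same-suspension deviations were 0.04 to 0.11 (cold) and -0.07 to -0.00 (warm) for cryopreservation and 0.31 to 0.44 and 0.10 to 0.28 for methanol. Across 29 comparisons and interaction tests, 154 alternatives listed first and 22 added after seeing the data (the replicate block, and 9 UMIs for a member listed at 0) were run: DESeq2 1.42.0, its size factors, no filter, the exact test, other gates and leaving out each library.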

Additional observations from a re-analysis of the deposited data

Results flagged for a closer look

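Differences between conditions were flagged where an edgeR interaction test of the difference itself was called after Benjamini-Hochberg adjustment. Groups of 3 libraries were not tested for a library far from the others. All values here are differences of log2 fold changes, and what lies behind them was not tested.

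The warm effect (warm over cold) was smaller in cryopreserved than in fresh C57BL/6J cells for 20 pairs of member and class. The members other than *Fosl2* were picked by the study for their rise in fresh warm-dissociated samples. The shared direction is therefore no independent support. For *Fos* the differences were -9.05 in the thick ascending limb, -7.63 in principal cells, -5.55 in endothelial cells, -7.10 in mononuclear phagocytes, -5.52 in T cells and -5.70 in B cells. The values in the thick ascending limb and principal cells rest on fresh cold libraries without a *Fos* UMI and are no bounds. Those in T and B cells rest on 4 and 2 *Fos* UMIs in fresh cold libraries, and those in endothelial cells and mononuclear phagocytes on 8 and 14. For all of these classes 1 of those libraries lists *Fos* at 0. The thick ascending limb call was lost without the second cold cryopreserved library (-9.73 to -5.00 over all settings). For *Jun* they were -4.09 in principal cells, -1.94 in endothelial cells, -3.52 in mononuclear phagocytes, -7.08 in T cells and -6.35 in B cells, the last 2 resting on 1 and 2 *Jun* UMIs in fresh cold libraries (-8.81 to -6.51 in T cells over all settings). The principal cell value rests on 5 *Jun* UMIs in those libraries. For *Junb* they were -4.85 in the thick ascending limb, -2.02 in endothelial cells, -3.06 in mononuclear phagocytes, -3.55 in T cells and -4.43 in B cells, of which the thick ascending limb was lost without each of 3 libraries (-5.93 to -3.33). The fresh cold libraries held 3 *Junb* UMIs in the thick ascending limb. For *Jund* they were -1.25 in endothelial cells, -1.60 in mononuclear phagocytes, -1.25 in T cells (lost in 11 other settings) and -1.61 in B cells.

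In fresh cells the warm effect was larger than in proximal tubule for 12 pairs. *Junb* differed by 4.02 in the thick ascending limb, 2.10 in principal cells, 1.56 in endothelial cells, 1.55 in mononuclear phagocytes, 2.87 in T cells and 2.77 in B cells. *Jund* differed by 0.84 in principal cells, 2.07 in endothelial cells, 1.46 in mononuclear phagocytes and 1.36 in B cells, *Jun* by 2.16 in principal cells and *Fosl2* by 5.06 in T cells. The *Fosl2* value rests on 1 cold UMI, that of *Junb* in the thick ascending limb on 3 and that of *Jun* in principal cells on 5. The *Fosl2* call and the *Jund* calls in principal and B cells were each lost in 5 of 9 other settings, *Jun* in principal cells in 3, and *Junb* in mononuclear phagocytes and in B cells without the second cold-dissociated library.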

How the results depend on the processing

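No called member value changed sign in any alternative in which it was fitted. Counts of called members that moved by more than 1.5 times were as follows, with leave-one-out ranges. Bulk suspension against intact kidney: 1, against 0 with DESeq2, 0 with no filter and 0 to 1 leaving out a library. Balb/c cryopreservation, whole libraries: 5, against 3 to 5. Cold methanol: 2 in whole libraries, against 1 with DESeq2 and 1 to 2, and 4 in classes, against 2 to 4. Warm methanol: 2 in whole libraries, against 1 to 2, and 4 in classes, against 1 to 6 and 7 with the replicate block. Nuclei of 15-week mice, whole libraries: 2, against 1 to 3. In classes 1x2000g gave 6, against 3 to 5 leaving out a library, and sucrose 17, against 9 to 19. The methanol interaction gave 0, against 1 with the replicate block, and the difference from proximal tubule 12, against 7 to 12.

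Members that were not called crossed 0 leaving out a library. These were bulk intact *Fos* (-1.34 to 1.05), *Jun* (-0.13 to 0.75), *Junb* (-0.70 to 0.10) and *Jund* (-0.13 to 0.09), fresh warm *Fosl2* (-0.05 to 0.32), cold methanol *Fos* (-0.02 to 1.21) and *Junb* (-0.01 to 0.38), warm methanol *Junb* (-0.19 to 0.04), methanol warm against cold *Fosl2* (-0.31 to 0.53, and -0.40 with the replicate block), 15-week nuclei *Fos* (-0.98 to 0.36) and *Fosl2* (-0.06 to 0.25), and 1x2000g *Fos* (-0.13 to 0.44). The cause was not tested.

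Pairing fresh, cryopreserved and methanol libraries by suspension changed no other count by that much. Warm and cold libraries share only a number: blocking on it gave 34 calls in fresh classes, 26 in cryopreserved and 22 in methanol-fixed ones, and a library's deviations matched those of its own number best in 2 of 3 fresh pairs (r -0.12 to 0.19), 0 of 3 cryopreserved pairs (-0.29 to 0.00) and 3 of 3 methanol pairs (0.09 to 0.17). No paired analysis was possible for the bulk and Balb/c comparisons because their labels and headers carry no replicate number that the groups share. *Fosl2* had too few UMIs for the filter in all but 1 of the 9 classes of fresh cells, and whether depth or a low level sets this was not tested.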
